A study of Macaca mulatta with 4 samples.

Results

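The genes described here encode the machinery that releases transmitter from synaptic vesicles. The set holds 44 genes chosen by name, and each of the 44 symbols matched 1 of the 35395 macaque gene IDs in the deposited count table. They fall into 8 functional classes: 3 synapsins, 4 proteins of the vesicle membrane, 8 synaptotagmins, 3 other proteins with a pair of C2 domains, 7 SNAREs and SNARE regulators, 5 priming factors, 13 active zone scaffolds and 1 endocytic adaptor. All 44 passed the filter on low counts and were tested. The choice of members used no measured value of theirs, but it was made with earlier results of these data known.

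The study sequenced RNA of the amygdala, a group of nuclei of the temporal lobe, from wild-type infant rhesus macaques (Macaca mulatta). There were 4 libraries, a female and a male control and a female and a male given sevoflurane, a volatile general anaesthetic. Per the labels' protocols, the treated animals inhaled sevoflurane at 2.5 to 3% for 4 hours on each of 3 occasions, near postnatal days 7, 21 and 35, and the amygdala was collected straight after the third. What the control animals breathed and their age at collection are not given in the labels or files used here. Whether a library is 1 animal or a pool is not given either, so p-values measure only the spread between these libraries. Each condition holds 1 female and 1 male library, so in the main comparison that spread mixes sex, animal and technical differences.

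Release runs through a fixed series of steps. A vesicle is tethered at the active zone, a protein scaffold on the presynaptic membrane, and is then docked and primed while SNARE proteins of vesicle and membrane begin to zip together. Calcium entering the terminal binds a synaptotagmin on the vesicle and triggers fusion, after which NSF takes the SNAREs apart and the vesicle membrane is retrieved by endocytosis. Volatile anaesthetics are known to depress transmitter release, and SNARE proteins are among their proposed presynaptic targets.

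Reads on genes numbered 12477047 to 16293371 per library. The control male library stood apart from the others: 9 matched choroid plexus markers summed to 19490 CPM (the read count scaled to library size) there, against 20.9 CPM in the other control and 37.4 and 11.3 CPM in the female and male sevoflurane libraries. The 12 pan-neuronal markers had reads in every library and summed to 6309 and 7233 CPM in the controls and 6048 and 7043 CPM in the sevoflurane libraries (female first). That overlap rested on MAP2, a dendritic microtubule protein, which went from 14.6 and 7.82 to 992 and 1551 CPM. Without MAP2 the sums were 6294 and 7224 against 5056 and 5491 CPM. Of the 12 markers 2 were called higher (MAP2 and ELAVL4) and 2 lower (RBFOX3 and TUBB3), or 16.7% each way. Among all tested genes 21.3% were called higher and 19.4% lower. Of 10 excitatory neuron markers 1 was called, NRGN, which fell from 4616 and 3604 to 985 and 485 CPM. The excitatory sums were 7879 and 6691 against 4472 and 4464 CPM with NRGN, and 3262 and 3087 against 3488 and 3979 CPM without it. Of 13 inhibitory neuron markers 2 were called higher (FOXP2 and TSHZ1) and 2 lower (the peptide genes SST and NPY), or 15.4% each way. The inhibitory sums were 1885 and 2262 against 1202 and 1198 CPM. They overlapped without SST, NPY and CALB2, at 797 and 493 against 846 and 662 CPM. Of 10 microglial markers 6 were called lower (60.0%) and 0 higher (sums of 485 and 445 against 182 and 243 CPM). Endothelial sums were 495 and 518 against 267 and 274 CPM, but only 3 of 10 endothelial markers were called lower and 2 were called higher. Much of that fall lay in CLDN5 (111 and 149 against 21.5 and 20.4 CPM) and EGFL7 (141 and 150 against 23.3 and 15.7 CPM). FLT1 rose from 2.35 and 0.355 to 39.9 and 48.4 CPM. Of 10 astrocyte markers 1 was called higher and 4 lower (sums of 7267 and 6415 against 5298 and 6000 CPM). GFAP fell from 2317 and 2337 to 254 and 552 CPM, while SLC1A2 rose from 28.6 and 15.9 to 370 and 508 CPM. Oligodendrocyte markers summed to 1578 and 6771 CPM in the controls and 3151 and 4159 CPM after sevoflurane. The genes left out of these sums were chosen after their values were seen. Fewer cells of a type and less RNA per cell cannot be told apart in bulk tissue, and the part of these markers in the results below was not tested.

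The comparison of sevoflurane with control asked which release genes differed right after the last exposure. In the sevoflurane libraries 23 of the 44 genes were higher and 2 were lower, with 19 not called (edgeR's quasi-likelihood test, Benjamini-Hochberg adjusted p under 0.05 over all 15417 genes tested). That is 52.3% higher and 4.55% lower, where 21.3% of all tested genes were called higher and 19.4% lower. The median log2 fold change of the 44 genes was 1.30, beside 0.0040 for all tested genes. Both sevoflurane libraries lay above both controls for 28 of the 44 genes (63.6%, against 37.7% of all tested genes) and below them for 9 (20.5%, against 37.3%). Scaling by library totals in place of TMM put the median of all tested genes at 0.24 and the share of higher genes among all called at 63.3%, against 52.3% with TMM, and gave 24 members higher and 2 lower. Without the control male library 23 members were called higher, and without the sevoflurane male library 20 were. The count of lower members depended more on the test: DESeq2 called 6, a fit with sex as a further term called 7, and leaving out the control male or the sevoflurane female library gave 6 and 5, while leaving out the sevoflurane male gave 1.

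The classes did not move alike. All 5 priming factors and 8 of 13 active zone scaffolds rose and none of either fell, which makes 13 of 18, or 72.2%. This pooling was not among the planned classes. In the other classes together, 10 of 26 rose (38.5%) and 2 fell (7.69%). The median log2 fold change was 3.17 for scaffolds, 2.33 for priming factors, 2.62 for synapsins, 2.24 for the other double-C2 proteins, 0.78 for synaptotagmins, 0.31 for SNAREs and their regulators and 0.22 for vesicle membrane proteins. With a filter at a mean of 5 CPM, which dropped SV2C, the median of vesicle membrane proteins was −0.45. The summed level of that class went from 4339 and 3283 CPM in the female and male controls to 2684 and 2638 CPM after sevoflurane. The synapsin sum went from 1016 and 906 to 686 and 784 CPM, although 2 of the 3 genes rose. No test was made of the difference between classes, and the classes were not matched for control level. The 8 scaffolds that rose had control means of 29.9 CPM (PPFIA2) or less. The 5 scaffolds not called had control means of 96.4 CPM (PPFIA4) or more. Among priming factors CADPS rose from a control mean of 145.5 CPM. The part of control level in the class differences was not tested. The summed level of all 44 genes, at 14510 and 11860 CPM in the female and male controls and 14380 and 15200 CPM after sevoflurane, overlapped between conditions, while its make-up differed. Priming factors and scaffolds together held 8.89% and 7.96% of the 44 genes' reads in the female and male controls and 20.9% and 18.8% in the sevoflurane libraries. Vesicle membrane proteins held 29.9% and 27.7% in the controls and 18.7% and 17.4% after sevoflurane.

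**Figure D1:**
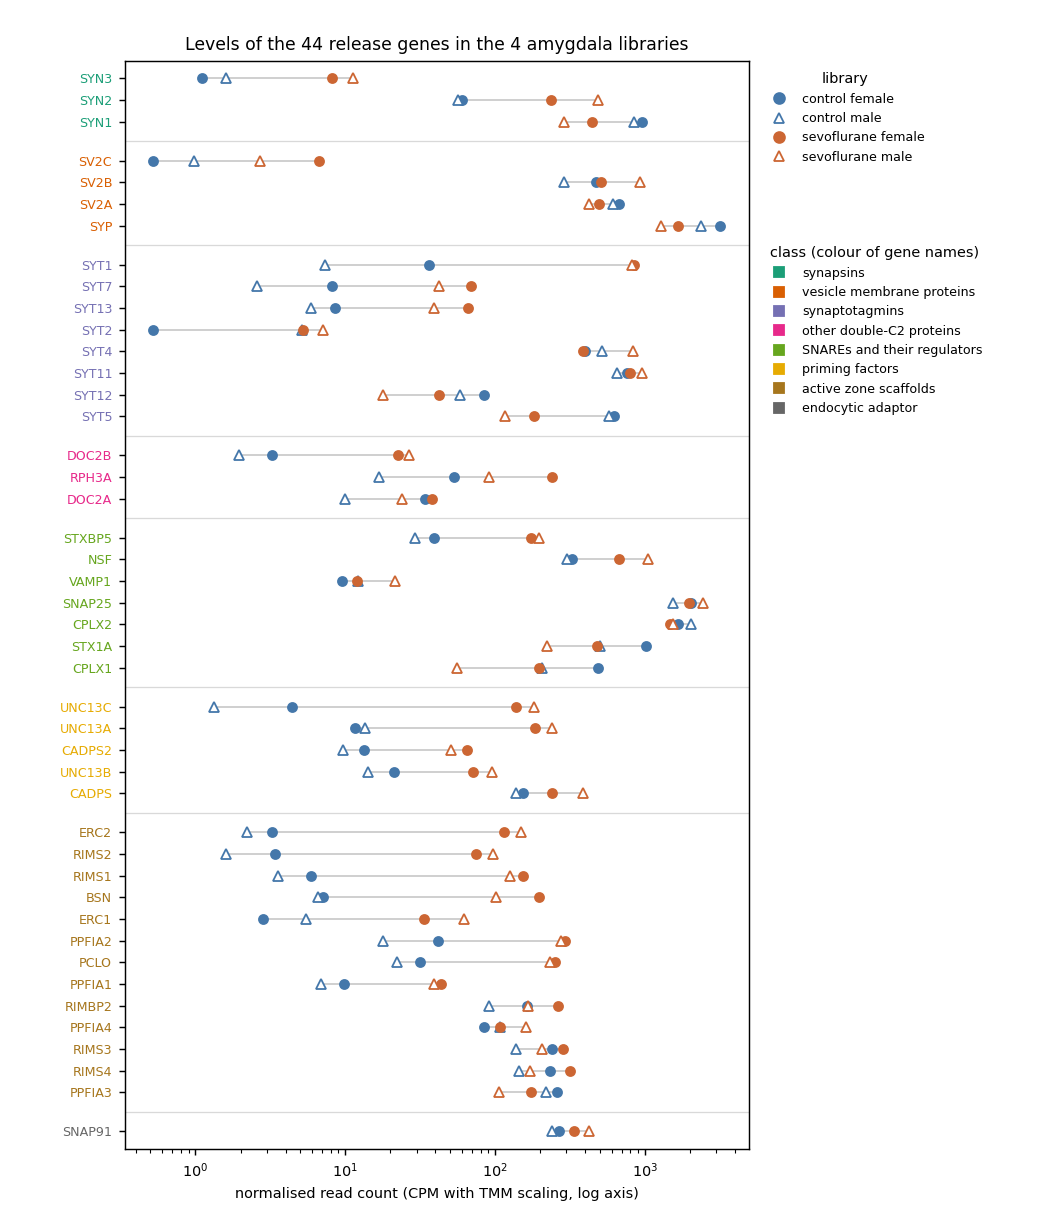
Level of each of the 44 release genes (vertical axis, grouped by class) as CPM with TMM scaling on a log axis (horizontal). Blue is control and orange is sevoflurane, filled circles are female and open triangles male libraries. Among priming factors both orange points lie right of both blue ones for 5 of 5 genes, and among scaffolds for 9 of 13.

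Priming factors make docked vesicles ready to fuse. UNC13A, the main Munc13 protein of forebrain synapses, opens syntaxin for SNARE assembly. UNC13A stood at 11.5 and 13.5 CPM in the female and male controls and at 185 and 241 CPM in the female and male sevoflurane libraries, an order kept for every gene below. The conditions were far apart, and the log2 fold change was 4.09 ± 0.30 SE (edgeR adjusted p = 0.00141). UNC13C, a paralog best known from the cerebellum, was at 4.44 and 1.33 CPM in the female and male controls and at 138 and 181 CPM after sevoflurane. Its log2 fold change was 5.75 ± 0.59, the largest of the 44 genes, with 6.92 when the control female was left out. With the control male left out it was 5.14, below ERC2 at 5.31, and in the female libraries alone it was 4.92, below ERC2 at 5.07. UNC13B, the remaining Munc13 gene among the members, went from 21.1 and 14.1 CPM to 70.9 and 95.9 CPM (2.24 ± 0.34). The CAPS proteins prime dense-core vesicles of neuropeptides and amines as well. CADPS2 was at 13.3 and 9.68 CPM in the controls and 64.5 and 51.0 CPM in the sevoflurane libraries (2.33 ± 0.33). CADPS, the CAPS gene with more reads, was at 153 and 138 CPM against 239 and 388 CPM (1.11 ± 0.31, adjusted p = 0.0318), and its call was lost without either control library or without the sevoflurane male.

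Active zone scaffolds hold vesicles and calcium channels together at the release site. RIMS1 and RIMS2 encode the large RIM proteins, which bind Rab3 on the vesicle, Munc13 and calcium channels. RIMS1 was at 5.94 and 3.55 CPM in the controls and 154 and 126 CPM in the sevoflurane libraries (log2 fold change 4.87 ± 0.37, edgeR adjusted p = 0.00141). RIMS2 was at 3.39 and 1.60 CPM in the controls and 74.1 and 96.9 CPM after sevoflurane (5.07 ± 0.46, and 5.76 without the control female library). The 2 genes had less than 10 CPM in each control. Their short relatives RIMS3 and RIMS4, whose proteins lack the Rab3-binding and PDZ parts, were not called. RIMS3 was at 242 and 138 CPM in the controls and 286 and 204 CPM in the sevoflurane libraries, and RIMS4 at 234 and 145 against 317 and 172 CPM, so the conditions overlapped for both, and RIMS3 had the most reads of the scaffolds. RIMBP2, which links RIM to calcium channels, was at 163 and 90.8 CPM against 262 and 166 CPM (0.75 ± 0.38, adjusted p = 0.157), and was called higher only with sex as a further term (0.78, adjusted p = 0.0333) or without the control female library (1.26, adjusted p = 0.0490).

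Bassoon and piccolo are the giant scaffolds that run through the active zone and hold the vesicle cluster. BSN was at 7.11 and 6.57 CPM in the female and male controls and at 197 and 102 CPM after sevoflurane (log2 fold change 4.44 ± 0.42, edgeR adjusted p = 0.00183). PCLO was at 31.4 and 22.1 CPM in the controls and 249 and 234 CPM in the sevoflurane libraries (3.17 ± 0.30). The ELKS proteins ERC1 and ERC2 bind RIM and bassoon. ERC2, the form concentrated in the brain, rose from 3.26 and 2.22 CPM to 114 and 150 CPM (5.58 ± 0.37), and ERC1 from 2.81 and 5.51 CPM to 33.8 and 62.0 CPM (3.53 ± 0.51). For both ELKS genes the lower treated library was well above the higher control.

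Liprins-alpha, encoded by PPFIA1 to PPFIA4, recruit scaffolds as the active zone is built. PPFIA2, of which the brain is the main site, was at 41.8 and 17.9 CPM in the controls and 291 and 276 CPM after sevoflurane (log2 fold change 3.24 ± 0.44, edgeR adjusted p = 0.00359, and 4.004 without the control female library). PPFIA1, the broadly expressed form, went from 9.85 and 6.84 CPM to 43.4 and 39.4 CPM (2.31 ± 0.34). The other liprins were not called. PPFIA3, with the most reads among liprins and below both controls in both treated libraries, was at 258 and 219 CPM against 175 and 106 CPM (−0.77 ± 0.32, adjusted p = 0.0957). It was called lower with sex as a further term (−0.80, adjusted p = 0.0309) and without the sevoflurane female library (−1.16, adjusted p = 0.0390). PPFIA4 was at 84.2 and 109 CPM against 108 and 160 CPM (0.48 ± 0.30).

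**Figure D2:**
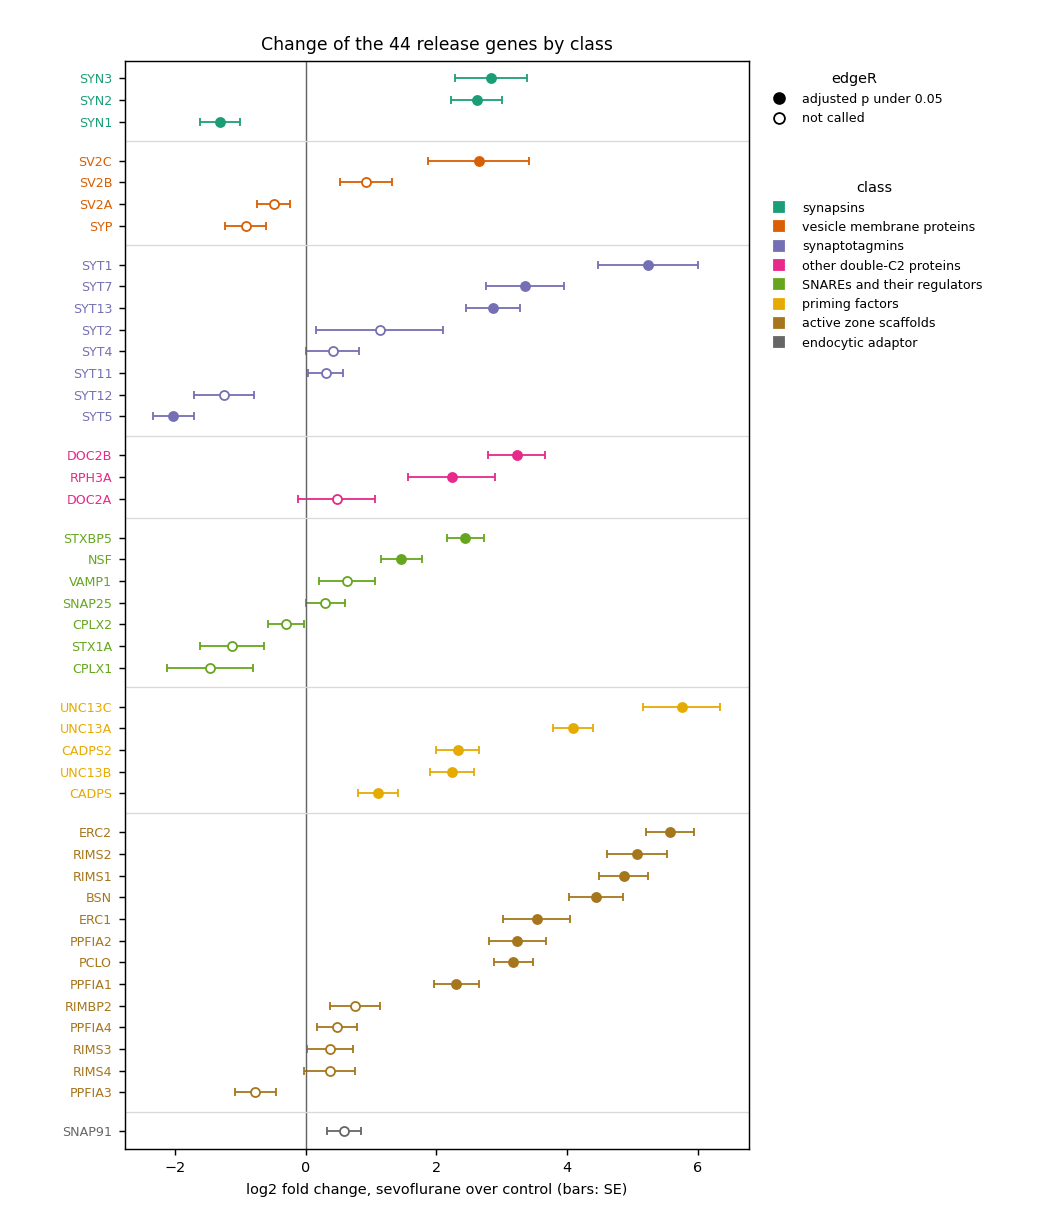
Log2 fold change of sevoflurane over control (horizontal, bars are SE) for the 44 genes by class, filled where edgeR called the gene. Priming factors lie between 1.11 and 5.75 and the scaffolds between −0.77 and 5.58, while SNAREs and their regulators lie on both sides of 0, from −1.46 to 2.44.

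Synaptotagmins are vesicle proteins with a pair of C2 domains, and several of them sense calcium. SYT1, the fast calcium sensor of forebrain synapses, had 36.2 CPM in the female and 7.37 CPM in the male control, against 841 and 815 CPM after sevoflurane. The 2 treated libraries were close to each other, whereas the controls differed. The log2 fold change of SYT1 was 5.24 ± 0.77 (edgeR adjusted p = 0.00422), with 6.83 when the control female was left out and 4.48 when the control male was. SYT7, a slow, high-affinity sensor of asynchronous release, went from 8.15 and 2.58 CPM to 68.6 and 42.4 CPM (3.36 ± 0.60, with 4.45 and 2.73 when the female or the male control was left out). SYT13, an atypical member that does not bind calcium, went from 8.55 and 5.86 CPM to 66.3 and 39.4 CPM (2.87 ± 0.41).

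SYT5 moved the other way. This calcium-binding paralog of SYT1 stood at 627 and 578 CPM in the controls and 181 and 116 CPM after sevoflurane, with no overlap between the conditions. Its log2 fold change was −2.02 ± 0.31 (edgeR adjusted p = 0.00479), and it stayed called under each of the alternatives tried. SYT12, another member without calcium binding, was at 84.8 and 58.3 CPM against 42.5 and 17.9 CPM (−1.24 ± 0.46, adjusted p = 0.0702); DESeq2 called it lower (adjusted p = 0.0285), as did the fits with sex as a term and without the control male or the sevoflurane female library (−1.99 in the last). SYT11, the synaptotagmin with the most reads, was at 765 and 647 CPM in the controls and 799 and 950 CPM after sevoflurane (0.31 ± 0.27, adjusted p = 0.385). SYT4, an activity-induced form found on dense-core vesicles, overlapped between conditions at 400 and 515 against 385 and 835 CPM. SYT2, the fast sensor of the hindbrain and of some inhibitory neurons, was low throughout at 0.522 and 5.15 CPM in the controls and 5.25 and 7.07 CPM after sevoflurane, and was not called (1.14 ± 0.97), with 3.51 when the control male was left out (adjusted p = 0.00863) and 0.28 when the control female was (adjusted p = 0.779).

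The remaining double-C2 proteins are soluble calcium sensors. DOC2B, tied to spontaneous and asynchronous release, was at 3.26 and 1.95 CPM in the controls and 22.6 and 26.8 CPM in the sevoflurane libraries (log2 fold change 3.23 ± 0.44, edgeR adjusted p = 0.00356). RPH3A, or rabphilin, a Rab3 effector with the most reads of this class, was at 53.5 CPM in the female and 16.8 CPM in the male control, against 241 and 90.9 CPM after sevoflurane. In each condition the male library had less than the female. RPH3A rose by 2.24 ± 0.67 (adjusted p = 0.0379), with 3.32 and 1.60 when the female or the male control was left out, and its call was lost without the sevoflurane female library (1.38, adjusted p = 0.161). DOC2A overlapped between conditions, at 34.2 and 9.95 CPM against 37.7 and 23.8 CPM, and was called higher only when the control female library was left out (1.65, adjusted p = 0.0238).

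Synapsins coat the reserve pool of vesicles and tether it to the cytoskeleton, and the 3 genes did not move together. SYN1 was at 955 and 848 CPM in the controls and at 441 and 289 CPM after sevoflurane, with no overlap. Its log2 fold change was −1.30 ± 0.31 (edgeR adjusted p = 0.0178), a call lost without the sevoflurane male library (−1.03, adjusted p = 0.0670). SYN2 moved up, from 60.4 and 56.9 CPM to 236 and 484 CPM (2.62 ± 0.39, and 2.02 without the sevoflurane male library). SYN3, the member expressed early in development, went from 1.11 and 1.60 CPM to 8.10 and 11.3 CPM (2.84 ± 0.55, and not called without the sevoflurane male library, at adjusted p = 0.0667).

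Among proteins of the vesicle membrane, 1 of 4 was called. SYP, synaptophysin, the standard marker of synaptic vesicles and the member with the most reads, was at 3198 and 2378 CPM in the controls and 1671 and 1279 CPM after sevoflurane, so both treated libraries were below both controls. The log2 fold change of −0.92 ± 0.31 missed the threshold (edgeR adjusted p = 0.0571), and DESeq2 (adjusted p = 0.0134) and the fits with sex as a further term (adjusted p = 0.0223) or without the control male library (adjusted p = 0.0466) called it lower. SV2A, a vesicle glycoprotein that is the binding site of the antiepileptic drug levetiracetam, was at 669 and 614 CPM against 495 and 423 CPM (−0.48 ± 0.25, adjusted p = 0.168). SV2B was at 471 and 290 CPM against 512 and 934 CPM (0.93 ± 0.40, adjusted p = 0.105). It was called higher without the control female (1.35, adjusted p = 0.0412) or the sevoflurane female library (1.30, adjusted p = 0.0482), with sex as a further term (0.90, adjusted p = 0.0481) and without the low-count filter (0.94, adjusted p = 0.0135). SV2C, the form of basal ganglia, had 8 and 11 reads in the controls and 106 and 39 after sevoflurane, or 0.522 and 0.977 against 6.71 and 2.68 CPM. It was called higher (2.65 ± 0.77, adjusted p = 0.0351), and that call was lost when the control female or either sevoflurane library was left out, with 1.85 left without the sevoflurane female.

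Of the 7 SNAREs and SNARE regulators 2 were called higher (28.6%, against 21.3% of all tested genes) and none lower. DESeq2 did call STX1A (adjusted p = 0.0477) and CPLX1 (adjusted p = 0.0358) lower. SNAP25, the plasma membrane SNARE and the member of this class with the most reads, was at 2020 and 1542 CPM in the controls and 1961 and 2441 CPM in the sevoflurane libraries, which overlap (log2 fold change 0.31 ± 0.30, edgeR adjusted p = 0.445). STX1A, syntaxin-1A, was at 1021 and 503 CPM against 479 and 222 CPM (−1.12 ± 0.49, adjusted p = 0.110). Leaving out the control female gave −0.50 and leaving out the treated female −1.77, whereas STX1A was called when the control male was left out (−1.58, adjusted p = 0.0181). VAMP1, a vesicle SNARE, was at 9.52 and 12.2 CPM against 12.03 and 21.6 CPM (0.63 ± 0.43). VAMP2 had no matched ID and was not analysed here.

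Complexins clamp and then promote SNARE-driven fusion. CPLX2 was at 1673 and 2048 CPM in the controls and 1482 and 1542 CPM after sevoflurane (log2 fold change −0.30 ± 0.28, edgeR adjusted p = 0.415). CPLX1 varied more between libraries, at 486 and 206 CPM in the controls and 195 and 55.5 CPM after sevoflurane. Its log2 fold change was −1.46 ± 0.65 (adjusted p = 0.117), while with sex as a further term it was −1.60 and called (adjusted p = 3.93e-04). Single libraries moved it: leaving out the control female gave −0.70 and leaving out the sevoflurane male −0.82, whereas CPLX1 was called when the control male (−1.99) or the treated female (−2.63) was left out. With sex as a further term STX1A was called as well (−1.14, adjusted p = 0.00447). NSF, the ATPase that disassembles spent SNARE complexes, rose from 324 and 302 CPM to 671 and 1055 CPM (1.46 ± 0.31, adjusted p = 0.0128). STXBP5, or tomosyn, which competes with vesicle SNAREs and inhibits priming, rose from 39.1 and 29.2 CPM to 173 and 198 CPM (2.44 ± 0.28, adjusted p = 0.00251). SNAP91, or AP180, the clathrin adaptor that retrieves vesicle SNAREs, was at 269 and 240 CPM against 339 and 425 CPM (0.59 ± 0.26, adjusted p = 0.113). Its 2 treated libraries were above both controls, and with library totals in place of TMM it was called higher (0.82, adjusted p = 0.0488).

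Some close relatives were called in opposite directions, among them SYN1 and SYN2, and SYT1 and SYT5. The ratio of reads of 2 genes within a library does not depend on library scaling, and 15 such pairs were taken within families or classes after the levels had been seen, so their shifts are given as a description. SYN2 had 0.0633 reads for each SYN1 read in the female and 0.0672 in the male control, against 0.536 and 1.68 after sevoflurane. SYT1 had 0.0577 and 0.0128 reads per SYT5 read in the controls and 4.65 and 7.04 after sevoflurane, the widest shift of the 15 pairs. RIMS1 had 0.0245 and 0.0258 reads per RIMS3 read in the controls and 0.537 and 0.619 after sevoflurane. The ratio of PPFIA2 to PPFIA3 went from 0.162 and 0.0818 to 1.67 and 2.59. These 4 ratios did not overlap between conditions, and neither did those of most other pairs. The ratio of UNC13A to UNC13B, both of which rose, went from 0.546 and 0.956 to 2.60 and 2.52. For CPLX1 over CPLX2 the values were 0.290 and 0.101 in the controls and 0.132 and 0.0360 after sevoflurane, which do overlap. Genes of unequal length gather reads unequally, so a ratio in 1 library does not say which of the 2 transcripts was more abundant.

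**Figure D3:**
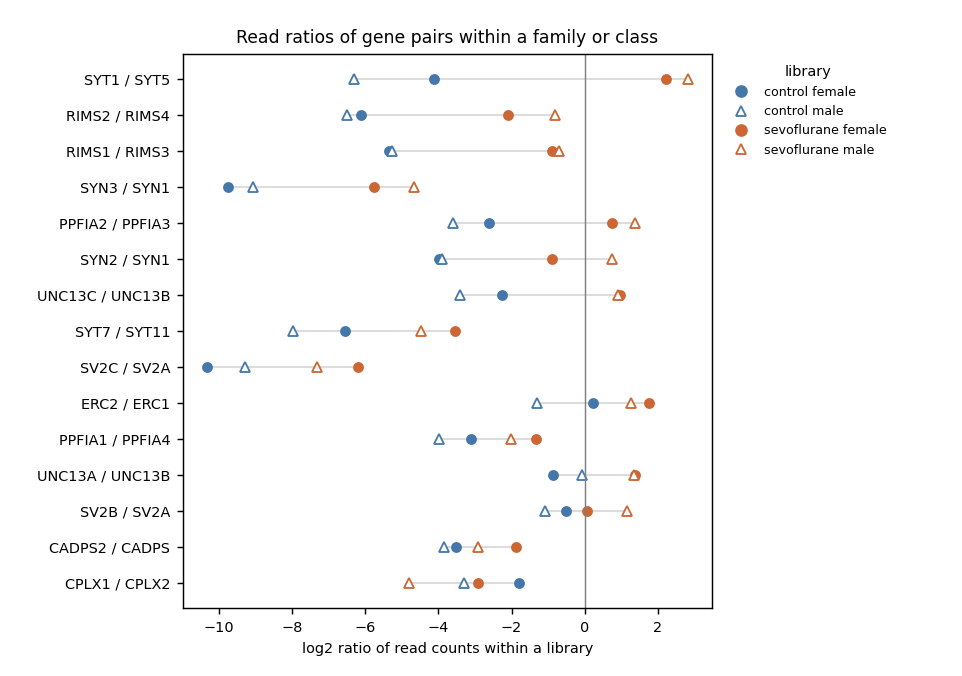
Log2 ratio of the read counts of 2 genes within a library (horizontal) for 15 pairs of a family or class, ordered by mean shift. Blue is control, orange sevoflurane, filled circles female, open triangles male. SYT1 over SYT5 moved furthest, from −4.11 and −6.29 in the controls to 2.22 and 2.81, and CPLX1 over CPLX2 overlapped.

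The share called higher was larger among members with fewer reads, as it was among all tested genes. Of the 23 members called higher, 14 had a mean under 100 CPM, and of the 3282 genes called higher among all tested, 2908 did. Of the 18 members with a mean under 100 CPM over the 4 libraries, 14 were called higher (77.8%) and 0 lower, with 22.3% higher and 17.0% lower among all 13013 tested genes below that level. Of the 26 members at or above it, 9 were called higher (34.6%) and 2 lower (7.69%), against 15.6% and 32.7% of 2404 tested genes. That mean includes the sevoflurane libraries, so a rise itself can lift a gene over the level. Of these 9, NSF (313 CPM) and CADPS (145.5 CPM) had control means above 100 CPM. The control means of the rest were lower: UNC13A 12.5, SYT1 21.8, PCLO 26.75, PPFIA2 29.9, STXBP5 34.15, RPH3A 35.1 and SYN2 58.7 CPM. No split of the 44 genes by control level was made. The level of 100 CPM was chosen after the data were seen. SYP, SNAP25 and CPLX2, which had the most reads of the 44, were among the genes not called. Transcript length was not measured here. Of 75 tested genes for cytosolic ribosomal proteins, whose messenger RNAs are short, 0 were called higher and 67 lower, and the part of such a shift in the values of release genes was not tested.

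**Figure D4:**
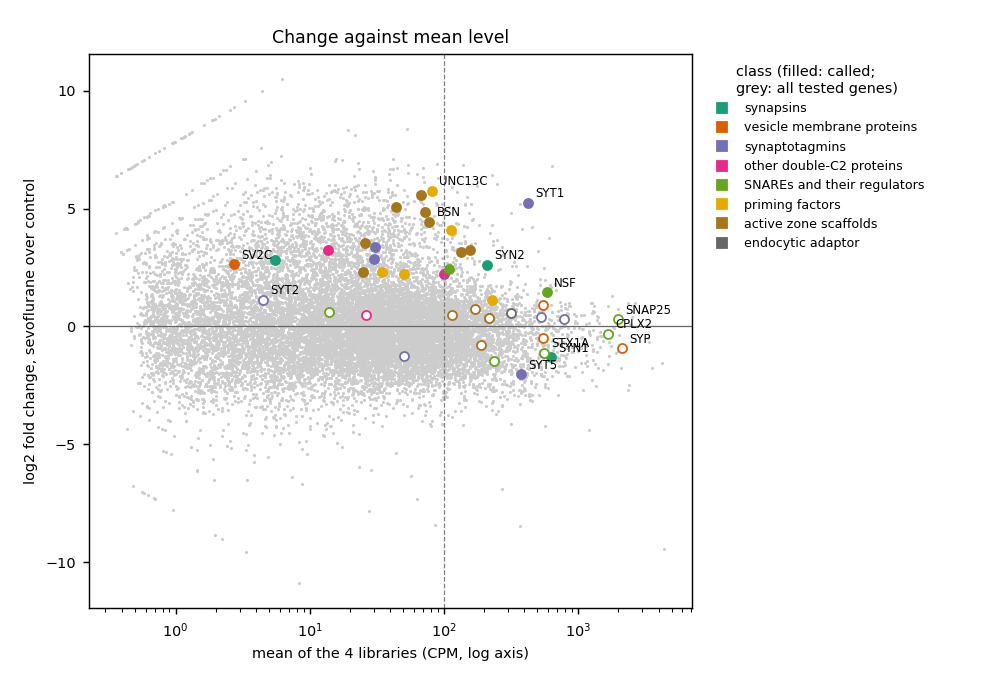
Log2 fold change of sevoflurane over control (vertical) against the mean CPM of the 4 libraries (horizontal, log axis) for the 44 release genes in class colours, filled where called, over all tested genes in grey. The dashed line marks 100 CPM, with 14 of 18 members called higher to its left and 9 of 26 to its right.

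The female and the male pair of libraries gave like changes for most members. The sign was shared in 42 of the 44 genes (95.5%, against 85.3% of all tested genes). Of the 23 genes that rose, 18 had the larger log2 fold change in the male pair (78.3%, near the 73.7% of all genes called higher). UNC13C changed by 4.92 in females and 6.94 in males, and SYT1 by 4.53 and 6.76. SV2C and SYT2 were the reverse, at 3.37 in females against 1.33 in males for SV2C and 3.03 against 0.45 for SYT2. With 1 library of each sex per condition, a difference between the sexes in the response could not be tested.

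**Figure D5:**
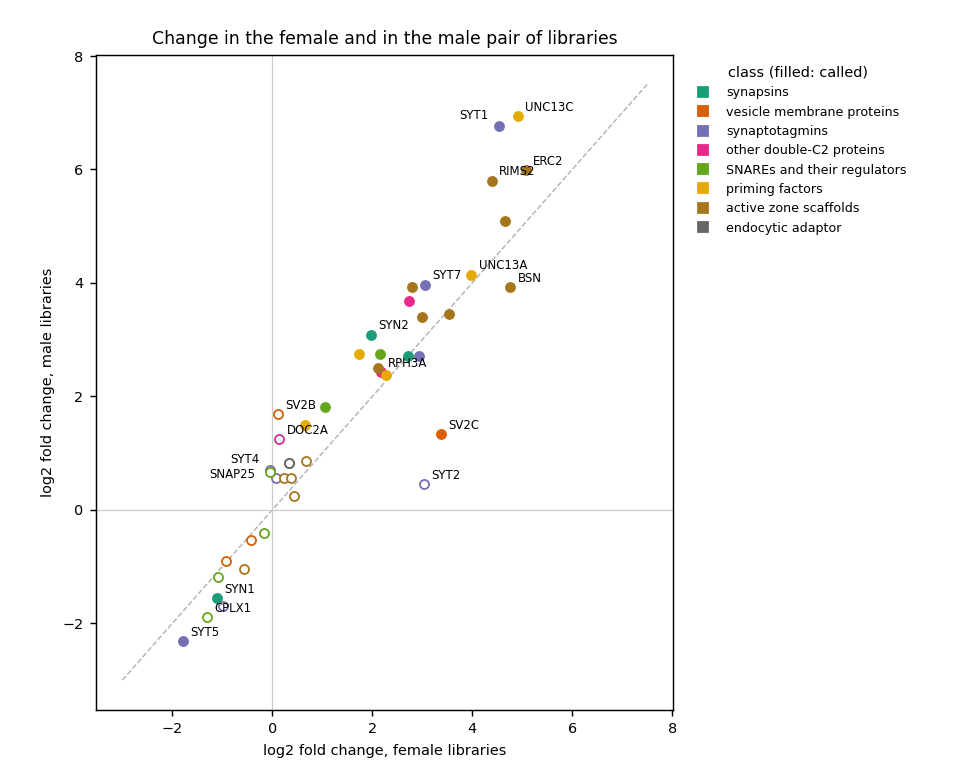
Log2 fold change of sevoflurane over control in the female libraries (horizontal) and in the male libraries (vertical) for the 44 genes, on log2 CPM with a prior count of 2. Filled points were called, and the dashed line marks equal change. Most filled points at the upper right lie above the line, UNC13C at 4.92 and 6.94 among them, and SYT4 and SNAP25 lie just left of 0.

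Between the sexes, with condition as a term, 2 of the 44 genes were called, both lower in males, where 1.04% of all tested genes were called lower and 0.798% higher in males. RPH3A was lower in males by a log2 difference of −1.54 ± 0.30 (edgeR adjusted p = 0.0109), and CPLX1 by −1.52 ± 0.30 (adjusted p = 0.0127). STX1A, at −1.06 ± 0.29, missed the threshold (adjusted p = 0.0888), and DESeq2 called it lower in males (adjusted p = 0.0182). In the control female library RPH3A, CPLX1 and STX1A each stood at more than 2 times the level of the control male, and the same order held between the sevoflurane libraries. Each sex is 1 library per condition, so sex cannot be told apart from any other difference between those libraries.

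Other presynaptic genes were called in both directions. From lists of 101 further genes of the vesicle cycle, 100 symbols had an ID and 95 were tested, of which 28 rose (29.5%, against 21.3% of all tested genes), 19 fell (a share close to the 19.4% of all tested genes) and 48 were not called, with a median log2 fold change of 0.10. Among 22 other SNAREs and regulators 4 rose and 4 fell, among 14 other synaptotagmins and vesicle proteins 4 rose and 3 fell, and among 19 other active zone and Rab3 proteins 8 rose and 2 fell. Of 31 endocytosis genes 10 rose and 8 fell, and of 9 transmitter transporters and synucleins 2 rose and 2 fell. The largest falls were those of SNCG, AP2S1 and LIN7B. AP2S1, the small subunit of the clathrin adaptor AP-2, fell from 236 and 357 CPM to 46.0 and 38.9 CPM (−2.80 ± 0.32, edgeR adjusted p = 0.00248). LIN7B, a partner of the scaffold kinase CASK, fell from 61.9 and 73.99 CPM to 9.37 and 10.1 CPM (−2.80 ± 0.30). SNCG, gamma-synuclein, was at 279 CPM in the female and 1300 CPM in the male control, against 44.7 and 139 CPM (−3.11 ± 0.84). Its log2 fold change was −1.63 when the control male, −3.79 when the control female and −4.14 when the sevoflurane male was left out, and its call was lost without the sevoflurane female.

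The largest rises of these lists were in genes with few or no control reads. FCHO2, which starts clathrin pits, had 5 and 3 reads in the controls and 204 and 223 after sevoflurane, or 0.326 and 0.267 against 12.9 and 15.3 CPM (log2 fold change 5.52 ± 0.57, edgeR adjusted p = 0.00204). STON1, a stonin, had 2 control reads, both in the male library, and 200 reads after sevoflurane, a ratio of 87.6 (95% exact counting interval 23.9 to 728), and its call was lost without the sevoflurane male library. SLC18A2, the vesicular monoamine transporter, had 0 reads in the controls and 12 and 10 after sevoflurane, at least 3.13-fold higher against a floor of 3 reads per library. Its call was lost with DESeq2 and without either control library, and it was not tested without either sevoflurane library. Intervals and floors cover counting error only.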

How the data were processed

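The reads had been aligned with HISAT2, per the submitters' processing notes. The aligner's version, the counter, genome build, annotation and strandedness are unstated in the labels and files used here. The authors deposited raw read counts per gene, not normalized, for 35395 Ensembl macaque IDs, of which 24173 had a symbol in the table of gene names. Genes that share reads with overlapping or near-identical genes are uncertain.

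Genes were filtered with filterByExpr (minimum count 10), which left 15417, and scaled with TMM. Sevoflurane and control libraries (2 each, grouped by the treatment label) were compared with edgeR 4.0.16 (quasi-likelihood F-test, condition as the only term, 2 residual degrees of freedom), and males with females with condition as a second term (1 residual degree of freedom). SEs were derived from the F statistic. The test was checked on simulated counts with 200 changed genes. Far more were called in the real data (3282 higher and 2996 lower), so that check does not cover changes this broad. Alternatives were DESeq2 1.42.0, other scalings and filters, sex as a term, and leaving out each library, where the lone library is assumed to vary like the other group.

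Members and lists were chosen with earlier results of these data known. Values are given for all called members, the member of each class with the most reads and the 3 called genes of largest rise and fall of the other lists. Other genes that the naming rule took are not reported here. The remaining members were named after their values were seen. No sequence or protein length was used here.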

Additional observations from a re-analysis of the deposited data

Results flagged for a closer look

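SYT4 and SNAP25 are listed because their log2 fold changes had opposite signs in the female and the male libraries. Neither gene was called, and the female values were close to 0. For SYT4 they were −0.06 in the female and 0.70 in the male libraries, a difference of 0.75. For SNAP25 they were −0.04 in the female and 0.66 in the male libraries, a difference of 0.70. With 1 library per sex and condition the difference was not tested.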

How the results depend on the processing

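Of 25 called members, 20 kept call and direction under every alternative that tested them, 19 of them higher. The members called higher numbered 20 to 24 without any 1 library, and those called lower 1 to 6. DESeq2 and the fit without a low-count filter called 6 members lower (SYN1, SYT5, SYP, SYT12, STX1A and CPLX1), and sex as a term, a replicate block by sex, called 7, with PPFIA3 added. The median of all members, 1.30, was 1.54 with library totals and 1.57 with the replicate block, and 1.08 to 1.60 without any 1 library. Genes called without any 1 library numbered 1967 to 3029 higher and 1502 to 2771 lower. Without the low-count filter 603 genes and 4 members were called between the sexes, against 283 and 2. Without any 1 library SYT4 ranged from −0.24 to 0.88, DOC2A from −0.19 to 1.65, RIMS3 from −0.015 to 0.85 and RIMS4 from −0.13 to 0.77. None of these was called in a reversed direction. Over 438 member values under alternatives, 9 lost a call, 29 gained one and 4 changed sign. SV2C, SYT2 and SYN3 had the lowest mean levels of the members, at 2.72, 4.50 and 5.52 CPM, and so the widest counting error.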
